A study of Mus musculus with 4 samples.

Results

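Single-nucleus RNA-seq, a droplet method that counts RNA molecules nucleus by nucleus, was run on mouse kidney tissue enriched for medulla. *Atp1b1*, *Fxyd2*, *Fxyd3*, *Fxyd4* and *Fxyd5* are 5 of the 31053 genes counted here. They were chosen by their symbols and not by any measured value, and each symbol matched 1 row of the count files. The question was in which kidney cell types these genes were found, and whether their levels differed between control mice and mice that lack *Tfap2a* in the collecting duct.

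The sodium pump, Na,K-ATPase, moves sodium out of the cell and potassium in at the basolateral side of kidney tubule cells, and so drives sodium reabsorption along the nephron. It is built from a catalytic alpha subunit and a beta subunit, which is needed to fold the pump and bring it to the membrane. *Atp1b1* encodes the main beta subunit of tubule cells. FXYD proteins are small membrane proteins that bind the pump and tune its affinity for sodium and potassium. *Fxyd2* encodes the gamma subunit, known from the proximal tubule and the thick ascending limb, and *Fxyd4* encodes the corticosteroid hormone-induced factor, known from the collecting duct. *Fxyd3*, also called Mat-8, is known from stratified and mucous epithelia, and *Fxyd5* encodes dysadherin, known from endothelium, blood cells and tumors.

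Tissue came from 4 male mice of 12 weeks, 1 library per mouse. It was a middle kidney slice, with the cortex trimmed in order to enrich medullary cells. Proximal tubule still made up 13864 of the 27341 nuclei that passed filters. All 4 mice carried 2 floxed alleles of *Tfap2a* (Tfap2aFlox/Flox). The 2 knockout mice also carried Hoxb7Cre, which recombines in the ureteric lineage (collecting duct and lower urinary tract epithelium), so other cells of these mice keep the gene, and the 2 control mice were Cre-negative littermates.

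A UMI is a tag that marks 1 RNA molecule, and the libraries held between 22179410 and 44964099 UMIs. After filters, 27341 nuclei remained, which were clustered and named from marker genes. Both libraries numbered 1 were the deeper ones, with median mitochondrial percentages of 1.66% and 1.05% against 0.671% and 0.417% in those numbered 2, and with free RNA making up an estimated 18.2% and 24.3% of the UMIs in nuclei against 15.3% and 8.89%. Pairs of libraries shared between 7 and 18 barcodes. *Tfap2a* itself had 77 and 181 UMIs in collecting duct principal cells (CD-PCs) of controls and 65 and 77 in those of knockouts, with a log2 fold change of 0.17 (standard error 0.35). In deep medullary epithelium of the pelvis (DMEP) it had 10 and 11 UMIs against 0 and 0. The libraries count the 3' end, where the recombined transcript can still give UMIs, so these values do not check the genotype labels.

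Of the 5 genes, *Fxyd4* lies on chromosome 6 of GRCm38.p6 (mm10) from 117933558 to 117937714, *Atp1b1* on chromosome 1 from 164437099 to 164458355, *Fxyd2* on chromosome 9 from 45399709 to 45410278, and *Fxyd3* and *Fxyd5* on chromosome 7 from 31070535 to 31076697 and from 31032723 to 31042331. Other annotated genes overlap 3 of them, *Nme7* over 202 bases of *Atp1b1*, *Lgi4* over 401 bases of *Fxyd3*, and the lncRNA *Gm38984* over 5489 bases and *Mir7050* over 60 bases of *Fxyd5*. A stretch near the start of *Fxyd4* is shown because Tfap2a is an AP-2 factor and *Fxyd4*, alone among the members with a promoter in the RefSeq table used here, has a match to the AP-2 motif GCCNNNGGC in the 250 bases before the start given there. The match (capitals) is printed 5′ to 3′ with 10 bases on each side, from GRCm38.p6, chr6:117937370-117937398, minus strand:

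*Fxyd4* AP-2 match: ctggtgtgtgGCCCAGGGCggagcccctg

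The match begins 53 bases before the transcript start that the table uses, 117937335. That start lies 379 bases inside the outer bound of the gene, so the match, 326 bases inside it, is before 1 start of *Fxyd4* and within the annotated extent of the gene. The motif reads the same on both strands, and 4509 of 32851 windows of this length in the table (13.7%) hold it. The windows of *Atp1b1*, *Fxyd3* and *Fxyd5* hold no match, and that of *Fxyd2* was not analysed here. A match is a run of letters and not a measured binding site.

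Levels are given in CPM, the UMIs of a gene over all UMIs of a class in a mouse, scaled to 1e+06. Across the 14 classes, the genes fell into 3 patterns: *Atp1b1* and *Fxyd2* were counted in every class, *Fxyd4* was high in principal cells of the collecting duct, and *Fxyd3* and *Fxyd5* were each found in few classes. The classes come from clustering the same nuclei, so these levels are a description and were not tested. None of the 5 genes was a marker used to name a class. All names are those of the class whose markers a cluster showed, and each stands for cells like it.

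**Figure D1:**
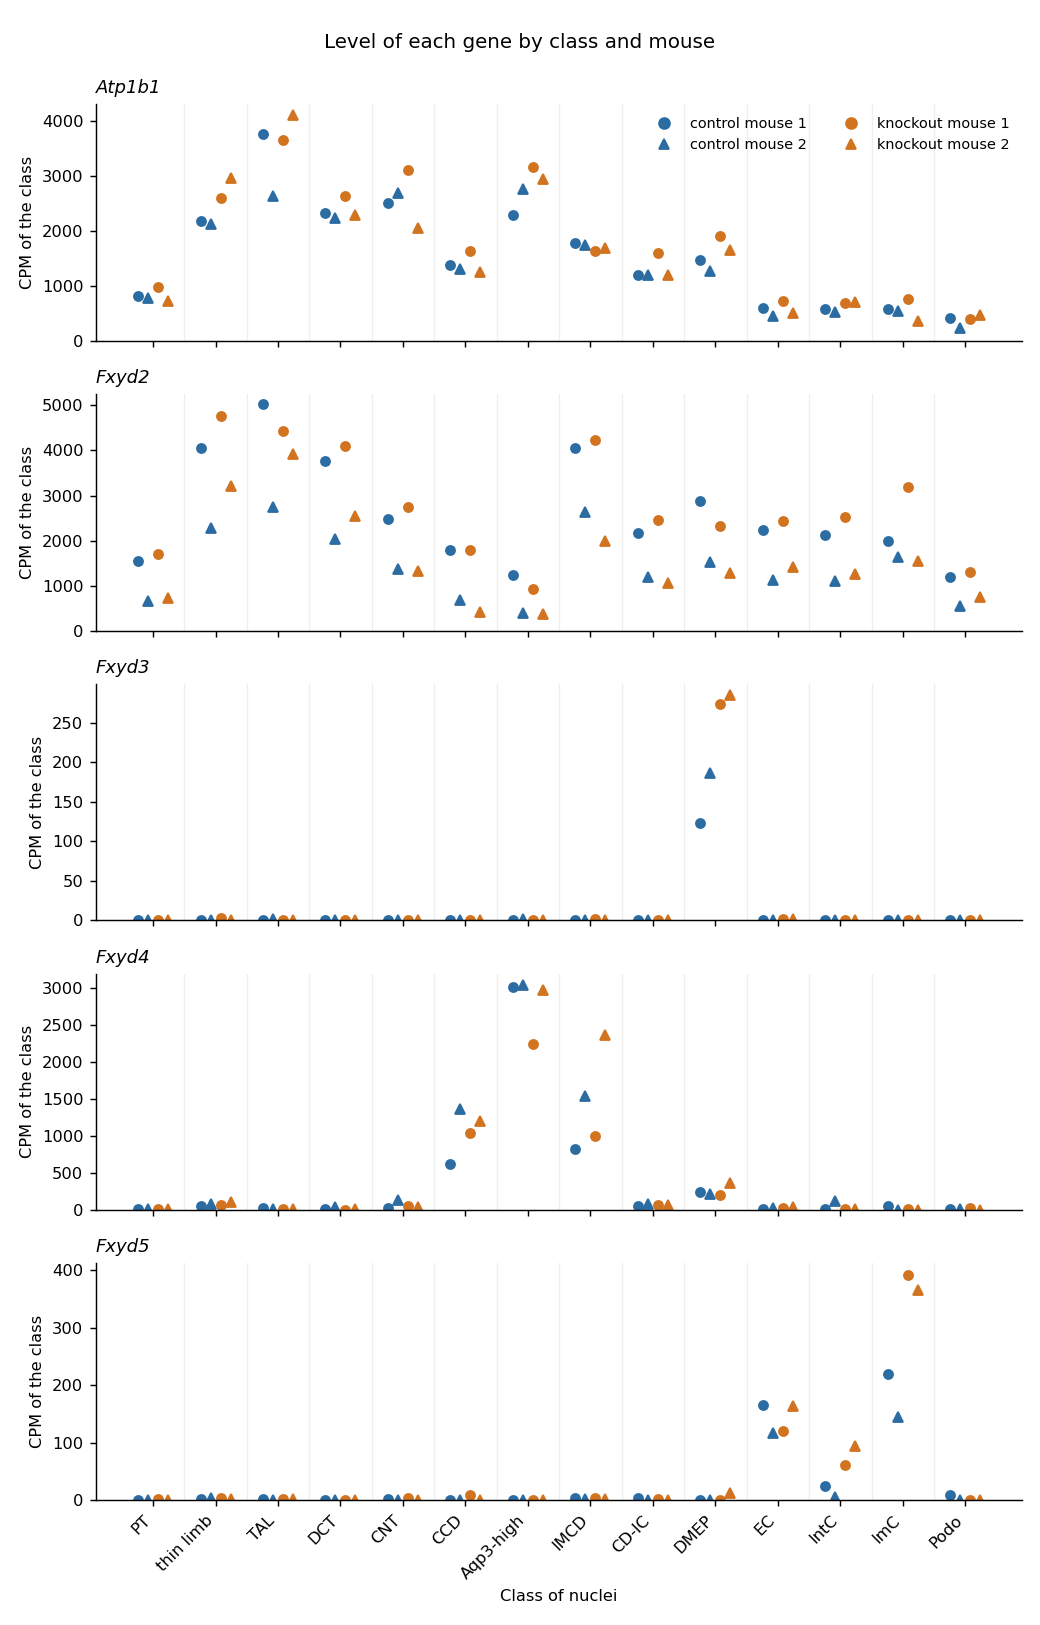
Level of each gene in 14 classes of nuclei, in CPM of the class (vertical axes, 1 scale per gene), with 1 point per mouse, blue for control and orange for knockout. *Fxyd3* stands out in DMEP, with 123 to 285 CPM, and *Fxyd4* in the CCD, Aqp3-high and IMCD classes, with 626 CPM or more in every mouse. Short names stand for connecting (CNT), distal convoluted (DCT) and proximal tubule (PT), thick ascending limb (TAL), cortical (CCD) and inner medullary (IMCD) collecting duct, pelvic epithelium (DMEP), intercalated (CD-IC), endothelial (EC), interstitial (IntC) and immune cells (ImC) and podocytes (Podo).

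*Atp1b1*, the beta subunit, was highest in thick ascending limb (TAL), the segment that reabsorbs sodium chloride through the *Slc12a1* cotransporter. There it stood at 3774 and 2640 CPM in controls and 3667 and 4119 CPM in knockouts. Connecting tubule (CNT), the Aqp3-high subcluster of principal cells, distal convoluted tubule (DCT) and thin limb followed, with control means of 2607, 2532, 2281 and 2156 CPM. From TAL down to thin limb, the ranges over the 4 mice of neighbors in this order overlapped. IMCD nuclei, at 1778 and 1750 CPM in control and 1641 and 1694 CPM in knockout mice, lay below thin limb in every mouse.

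Below the IMCD, *Atp1b1* had control means of 1369 CPM in DMEP, 1351 CPM in CCD and 1199 CPM in intercalated cells. Proximal tubule (PT), which reabsorbs most filtered sodium, had 823 and 775 CPM in controls and 989 and 719 CPM in knockouts, below every tubule class named so far in each mouse. Outside the tubule, immune, interstitial and endothelial cells and podocytes had control means of 564, 553, 527 and 323 CPM. Free RNA alone would give between 244 and 387 CPM of *Atp1b1*, from its share in barcodes under 100 UMIs and the free share of each library. All classes but podocytes exceeded that level in all 4 mice. Doublets (barcodes taken to hold several nuclei) were kept in the class levels.

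Within the TAL, the cluster low in *Enox1*, a gene of its cortical part, had more *Atp1b1* than the 2 clusters high in it when pooled, at 4045 and 2774 CPM against 3064 and 2194 CPM in the control mice. The knockout mice had 3809 and 4424 CPM against 3388 and 3261 CPM, in the same order.

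The other beta subunit genes were low. *Atp1b3* had control means from 29.4 CPM in PT to 176 CPM in interstitial cells, and *Atp1b2* was highest in interstitial cells, at 50.4 CPM. The control mean of *Atp1b4* stayed under 6 CPM in every class.

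*Fxyd2*, the gamma subunit, had control means of 3886 CPM in TAL, 3344 CPM in IMCD, 3162 CPM in thin limb and 2902 CPM in DCT. In TAL it had 5023 and 2748 CPM in controls and 4442 and 3930 CPM in knockouts, and in IMCD 4063 and 2626 CPM against 4227 and 2000 CPM. The mice numbered 1 and 2 thus lay far apart, and all neighbors in the order of 14 classes overlapped. The lowest level was in the Aqp3-high subcluster, at 1232 and 390 CPM in control and 915 and 359 CPM in knockout mice.

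*Fxyd2* had more CPM in the mouse numbered 1 than in that numbered 2 in 14 of 14 classes, both in control and in knockout mice, with median ratios of 1.87 and 2.03. The ratios ranged from 1.22 to 3.16 in control and from 1.13 to 4.26 in knockout mice. For *Atp1b1*, mouse 1 was higher in 12 of 14 classes in control and in 8 of 13 in knockout mice. Its median ratios were smaller, at 1.06 and 1.16. *Fxyd4* went the other way, with median ratios of 0.781 and 0.814 over 10 classes. The libraries numbered 1 also had the higher mitochondrial percentages and free RNA shares given above, whose part in the difference was not tested.

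**Figure D2:**
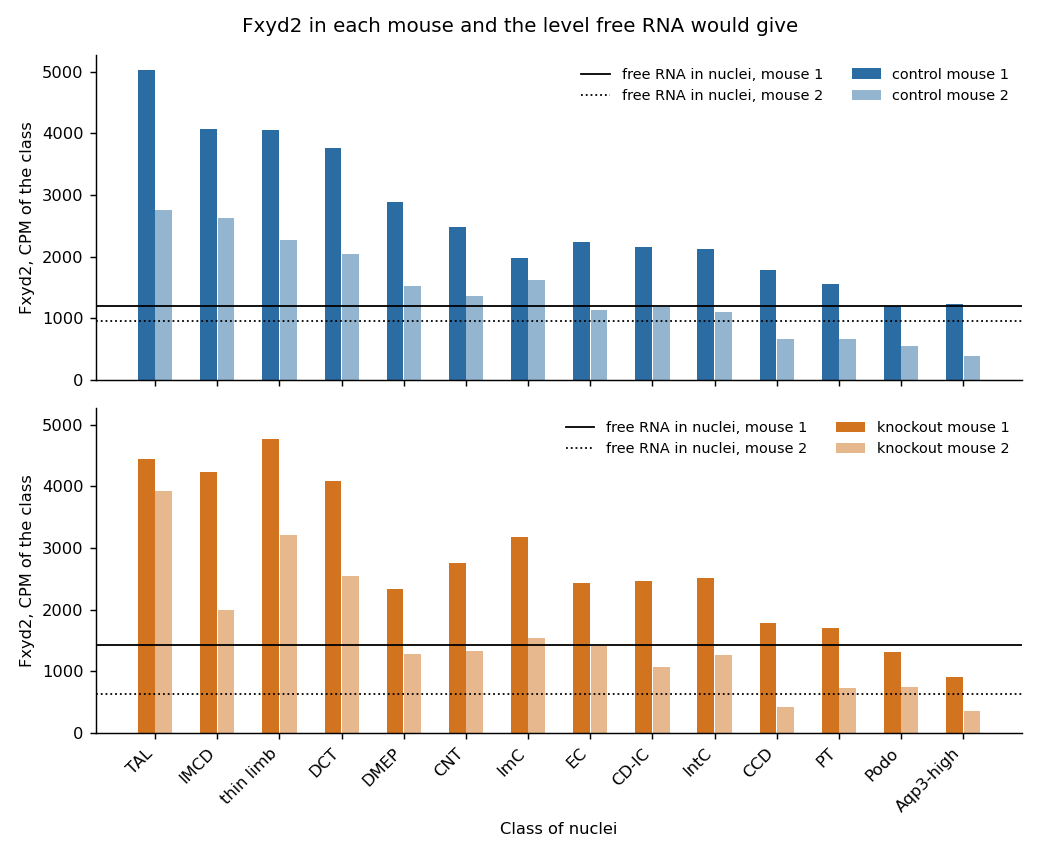
*Fxyd2* in CPM of the class (vertical axis) in 14 classes of nuclei, as bars for mouse 1 (dark) and mouse 2 (light), control mice above and knockout mice below. The lines mark the CPM that free RNA alone would give at the share estimated in endothelial nuclei. They lie at 1203 and 959 CPM in the control and 1420 and 632 CPM in the knockout mice. The Aqp3-high subcluster lies below its line in 3 of the 4 mice.

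Free RNA bears directly on *Fxyd2*. In barcodes under 100 UMIs, which hold free RNA, it made up 6608 and 6275 CPM in the control and 5848 and 7114 CPM in the knockout libraries, more than in any of the 14 classes of nuclei. The free share was estimated from PT and TAL markers in endothelial nuclei, with called doublets left out. It was applied unchanged to every class and member. Endothelial nuclei had a median of 1484.5 UMIs, against 3256 in the Aqp3-high subcluster and 4388 in IMCD. Whether the share holds in deeper nuclei was not tested. That share would give 1203, 959, 1420 and 632 CPM of *Fxyd2* in the libraries of control 1, control 2, knockout 1 and knockout 2, in that order. PT, podocytes, CCD and the Aqp3-high subcluster were not above that level in all 4 mice, and the other 10 classes were. PT was below it in control mouse 2 only. The class levels keep doublets, which made up 8.65% to 14.5% of endothelial and 13.5% to 19.0% of interstitial nuclei. Their part in these levels was not tested. Endothelial cells, which are not known for this gene, had 2240 and 1130 CPM in controls and 2439 and 1406 CPM in knockouts, more than PT in each of them. With free RNA subtracted, the mean of the Aqp3-high subcluster in the control mice went from 811 to 16.6 CPM. The subtraction cannot give negative counts, and control mouse 2 already lay below its free level there. The mean after subtraction thus rests on control mouse 1.

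*Fxyd4* was the most restricted of the abundant members. The Aqp3-high subcluster, the principal cells with the most *Aqp3*, a basolateral water channel gene, had 3013 and 3040 CPM in the control and 2244 and 2964 CPM in the knockout mice. IMCD had 822 and 1543 CPM against 994 and 2356 CPM, and CCD 626 and 1360 CPM against 1044 and 1198 CPM. The ranges of IMCD and CCD overlapped, and that of IMCD over the 4 mice also overlapped with that of the Aqp3-high subcluster.

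DMEP, at 251 and 224 CPM in control and 207 and 365 CPM in knockout mice, lay below CCD in every mouse and above all remaining classes. CNT, thin limb and intercalated cells had control means of 83.7, 69.8 and 68.5 CPM, and TAL and PT had 24.9 and 15.0 CPM. Free RNA would give between 24.9 and 57.1 CPM of *Fxyd4*, a level that PT and DCT did not exceed in any mouse.

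After each nucleus was thinned to 1000 UMIs, an average of 90.9% of Aqp3-high nuclei in the control mice had a UMI of *Fxyd4*, against 56.2% in CCD, 50.7% in IMCD, 1.77% in endothelial cells and 1.63% in PT. Without thinning these shares were 98.0%, 76.3%, 74.2%, 3.61% and 4.82%, at median depths of 3256, 2213, 4388, 1484.5 and 3194 UMIs. Thinning left out 1 of 310 Aqp3-high nuclei, 5 of 241 CCD, 2 of 679 IMCD, 200 of 1684 endothelial and 226 of 13864 PT nuclei.

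The IMCD held 2 subclusters that differed in *Fxyd4*. The one with more *Aqp3*, of 324 nuclei, had 1918 and 2404 CPM in the control and 2418 and 3327 CPM in the knockout mice. These levels lay below those of the Aqp3-high subcluster in both control mice and above them in both knockout mice. The one with little *Aqp3*, of 355 nuclei, had 72.9 and 702 CPM against 351 and 762 CPM. In each mouse the first stood above the second, and no level of one reached into the range of the other. Control mouse 1 had the lowest level in both.

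*Fxyd2* ran opposite to *Fxyd4* over these nuclei. It was highest in the IMCD subcluster low in *Aqp3*, at 5105 and 4213 CPM in control and 5073 and 3476 CPM in knockout mice, and lower in the other, at 2540 and 1000 CPM against 2356 and 1102 CPM. Set per 100 UMIs of *Fxyd2*, there were 245 and 780 UMIs of *Fxyd4* in the Aqp3-high subcluster of the control mice, and 245 and 826 in that of the knockout mice. In the IMCD subcluster low in *Aqp3* there were 1.43 and 16.7 in the control and 6.91 and 21.9 in the knockout mice. This ratio serves to compare classes, not to rank the genes. In the Aqp3-high subcluster, *Fxyd2* lay below the level free RNA would give in all mice but control mouse 1. The part of free RNA in the ratio was not tested. *Fxyd4*, but neither *Fxyd2* nor *Atp1b1*, was among the variable genes on which the libraries were integrated and clustered. When the sodium pump and FXYD genes were left out of these, the control mean of *Fxyd4* in the Aqp3-high subcluster was 3263 CPM in place of 3027 CPM.

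**Figure D3:**
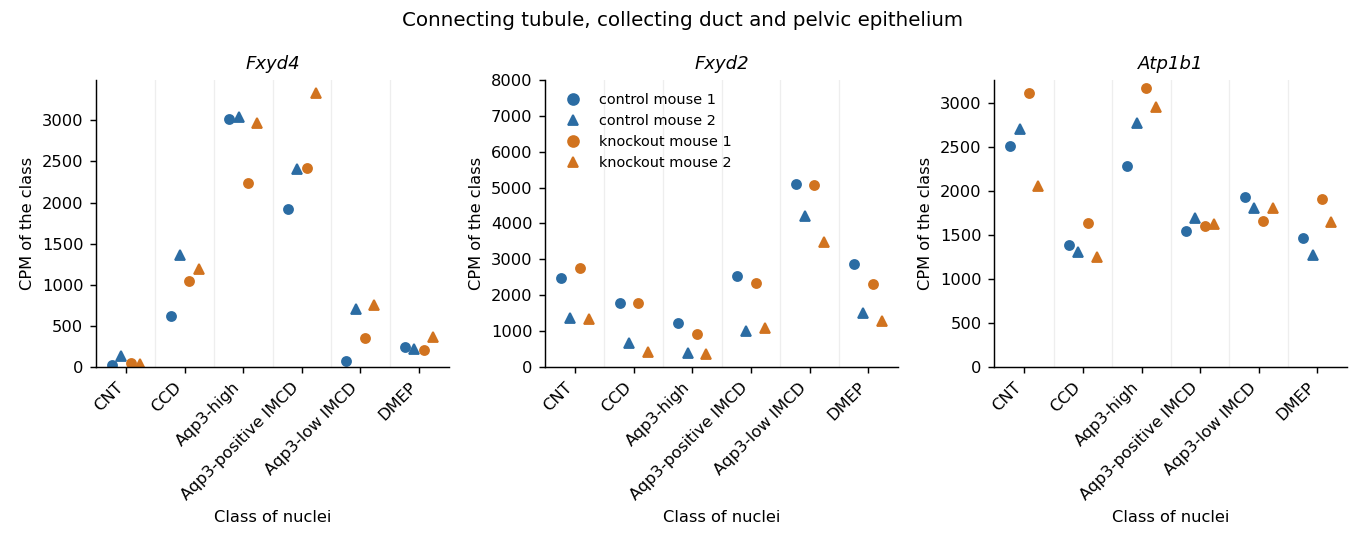
*Fxyd4*, *Fxyd2* and *Atp1b1* in CPM of the class (vertical axes) in connecting tubule, 4 groups of collecting duct principal cells and deep medullary epithelium of the pelvis, with 1 point per mouse. *Fxyd4* has at least 2244 CPM in the Aqp3-high subcluster and at most 762 CPM in the IMCD subcluster low in *Aqp3*, where *Fxyd2* is highest. In the IMCD subcluster with more *Aqp3*, *Fxyd4* lies below the Aqp3-high subcluster in both control mice and above it in both knockout mice. *Atp1b1* stays above 1200 CPM throughout.

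*Fxyd3* was found almost only in DMEP, the epithelium that lines the pelvis and carries keratin and uroplakin genes. There it had 30 and 81 UMIs in controls and 37 and 46 UMIs in knockouts, or 123 and 187 CPM against 273 and 285 CPM. In the other 13 classes no mouse had more than 3.21 CPM or more than 4 UMIs. A UMI of it was found in a mean of 37.7% of DMEP nuclei in controls, and in 51.6% and 54.8% in knockouts, out of 63, 92, 31 and 31 nuclei. Thinned to 1000 UMIs, the shares of the 4 mice were 11.2%, 19.2%, 23.8% and 24.1%, and without thinning at most 0.0887% of PT nuclei had one in any mouse.

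*Fxyd5* was found in cells outside the tubule. Immune cells had 220 and 145 CPM in controls and 392 and 366 CPM in knockouts, from between 13 and 46 nuclei a mouse. Endothelial cells had 165 and 116 CPM against 119 and 163 CPM. Of these, the cluster with markers of arteries and descending vasa recta had 289 and 188 CPM against 250 and 269 CPM, and the other endothelial cluster 80.7 and 66.5 CPM against 73.9 and 111 CPM. Within the endothelium the first was thus above the second in every mouse, and their ranges did not overlap. Interstitial cells had 23.6 and 6.11 CPM against 61.2 and 94.3 CPM, and no tubule class exceeded 12.4 CPM in any mouse.

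Over the 21 finest classes, genes with a pattern like that of each member were sought by Pearson's r of log2(CPM + 10) among 6125 genes with at least 100 CPM in 1 class, as a description over classes that share libraries and depth. *Nme7* was most like *Atp1b1*, with r = 0.96, followed by *Paqr5* with 0.89 and *Mif4gd* with 0.89. *Nme7* lies on the other strand with its 3' end inside *Atp1b1*, over 202 bases. Whether the counting used the strand is not given in the sources used here, so reads of this overlap may not be told apart. *Nme7* had between 19.0 and 45.1 CPM per 100 CPM of *Atp1b1* in these classes. For *Fxyd2* the best values were low, with 0.68 for *Mgst3*, *Becn1* and *Mfsd4a*. *Fxyd3* was most like *Krt15*, *Krt5* and *Snx31*, all with r = 1.00, while Spearman's rho was 0.28, 0.26 and 0.21. It reached 100 CPM only in DMEP, so these r values rest on that class, and *Krt5* was among the markers that named it. *Fxyd4* was most like *Nipal1*, with 0.95, the prostaglandin receptor gene *Ptger1*, with 0.95, and *Dab1*, with 0.93. *Fxyd5* was most like *Gm20663*, with 0.95, the proteoglycan gene *Srgn*, with 0.95, and the endothelial gene *Pecam1*, with 0.94. Spearman's rho was 0.60, 0.48 and 0.63 for these. *Fxyd5* reached 100 CPM in only 2 of the 21 classes, and *Pecam1* was among the markers that named endothelial cells.

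The genotype comparison asked whether the members changed where *Tfap2a* was deleted. Each class of a mouse was reduced to 1 sum of UMIs per gene, and the quasi-likelihood test of edgeR was run in the 13 classes with at least 20 nuclei in every mouse, its p-values adjusted by Benjamini-Hochberg over all genes tested in that class. These 13 count CD-PCs both as a whole and by their 3 groups (CCD, Aqp3-high and IMCD), which share nuclei. An adjusted p under 0.05 was called. None of the 44 tests of members was called, and the lowest adjusted p was 0.997. Over all genes, 16 of 153540 tests were called (0.0104%). With an unadjusted p under 0.05 there were 2 of 44 among the members and 4466 over all genes (2.91%). With 2 mice against 2, an exact permutation test cannot give a p below 0.33, and what p-values there are depend on edgeR's model. The groups did not overlap in 11 of the 44 member tests, against 29.4% of all gene tests.

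In all CD-PCs, where 0 of 13295 genes were called (0%) and 300 had an unadjusted p under 0.05, *Atp1b1* had 1834 and 1963 CPM in controls and 2136 and 1860 CPM in knockouts, and its log2 fold change was 0.07 (standard error 0.38). *Fxyd2* had 3431 and 1770 CPM against 2870 and 1436 CPM, with -0.26 (standard error 0.50), and *Fxyd4* 1170 and 1915 CPM against 1405 and 2284 CPM, with 0.25 (standard error 0.43). The groups overlapped for all 3 genes, and no difference exceeded the spread between mice.

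In the Aqp3-high subcluster, 9 of 10095 genes were called (0.0892%), and no member was among them. *Fxyd4* was lower in both knockout mice than in both control mice, with the values given above and a fitted log2 difference of -0.24 ± 0.26 (standard error), at an adjusted p of 0.999 in edgeR. *Atp1b1* stood higher in both, at 3169 and 2956 CPM against 2288 and 2775 CPM in the control mice, with 0.25 (standard error 0.25). In this class 32.6% of all genes had groups that did not overlap. The 7 summed CNT markers also stood higher in its knockout nuclei, at 3456 and 2746 CPM against 1507 and 1391 CPM. The 8 summed TAL markers stood lower there, at 471 and 226 CPM against 3083 and 1143 CPM. The part of either in the value of *Atp1b1* was not tested. *Fxyd2* overlapped, with -0.29 (standard error 0.42).

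In IMCD, where 1 of 12086 genes was called (0.00827%), *Fxyd4* had a log2 fold change of 0.50 (standard error 0.48), and its groups overlapped. Between mice of the same number its log2 ratio of CPM was 0.27 for mice 1 and 0.61 for mice 2. Nuclei of the subcluster with more *Aqp3* made up 43.0% and 52.3% of IMCD nuclei in controls and 32.2% and 64.4% in knockouts. Knockout mouse 2, with the largest share, had the most *Fxyd4*, but knockout mouse 1, with the smallest share, stood above control mouse 1. Within the subcluster with more *Aqp3* alone the log2 ratios were 0.33 and 0.47, and the part of the make-up in the difference was not tested. *Atp1b1* was lower in both knockout mice, with -0.07 (standard error 0.35) in a class where 26.8% of genes did not overlap, and *Fxyd2* had -0.09 (standard error 0.46). In CCD, with 0 of 8054 genes called (0%) and 161 at an unadjusted p under 0.05, the 3 genes had log2 fold changes of 0.05, -0.20 and 0.11 for *Atp1b1*, *Fxyd2* and *Fxyd4*, with standard errors of 0.41, 0.65 and 0.45. Leaving out 1 mouse turned the direction of *Fxyd2* in all 4 of these groups of principal cells and that of *Fxyd4* in all but the Aqp3-high subcluster.

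**Figure D4:**
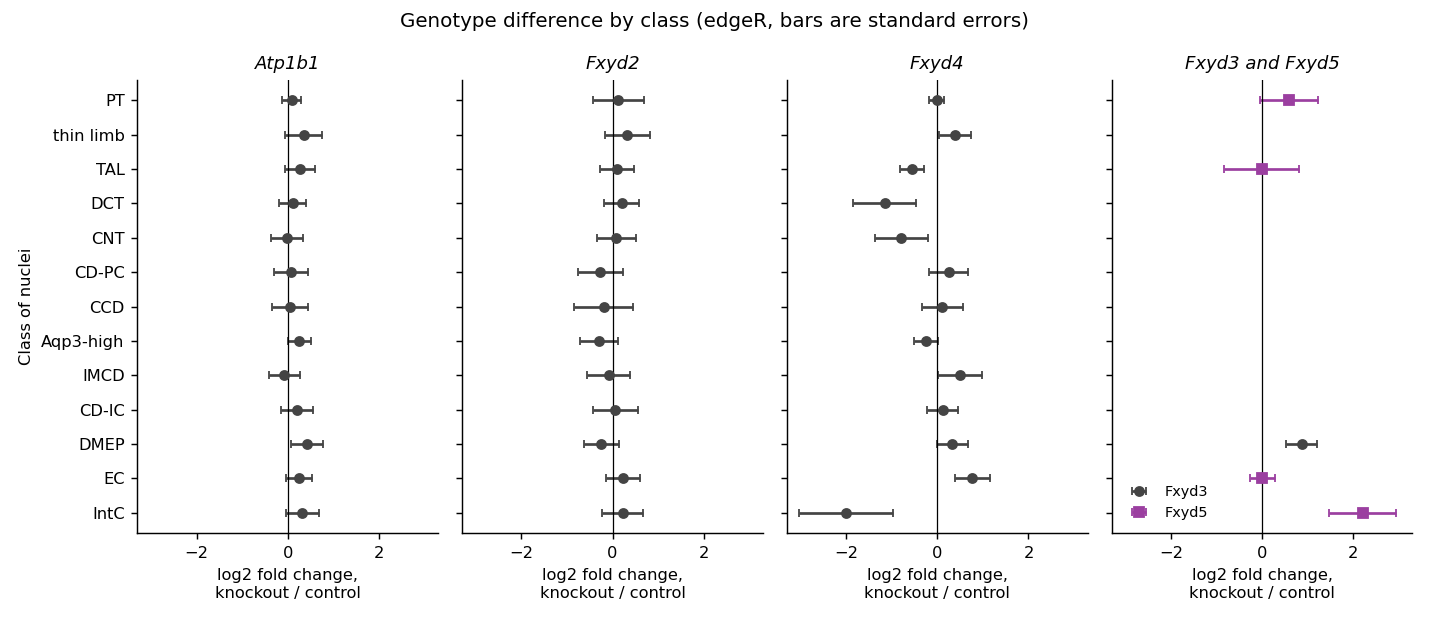
Log2 fold change of each member, knockout over control (horizontal axes, edgeR), in 13 classes of nuclei (vertical axis), with bars for the standard error; classes without a point had fewer than 10 UMIs over the 4 mice. *Atp1b1* and *Fxyd2* stay between -0.29 and 0.42 in all classes, and no value had an adjusted p under 0.05.

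In TAL, a lineage in which Hoxb7Cre is not known to act and where 2 of 14776 genes were called (0.0135%), *Atp1b1* had a log2 fold change of 0.27 (standard error 0.32) and *Fxyd2* of 0.10 (standard error 0.38). *Fxyd4*, at 27.3 and 22.4 CPM against 18.9 and 15.3 CPM, had -0.55 (standard error 0.27), below the level free RNA would give in 3 of the 4 mice, and its groups did not overlap, as did not those of 29.5% of genes. Over all 13 classes, *Atp1b1* lay between -0.07 and 0.42, with 11 classes above 0, and *Fxyd2* between -0.29 and 0.32, with 8 classes above 0. *Atp1b1* also did not overlap in thin limb, where it had 2175 and 2136 CPM against 2602 and 2969 CPM and a log2 fold change of 0.35 (standard error 0.41), nor in DMEP, where it had 1466 and 1272 CPM against 1907 and 1647 CPM and 0.42 (standard error 0.34). Of all genes, 28.7% in thin limb and 33.2% in DMEP did not overlap.

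The remaining values showed no call either. *Atp1b1* did not overlap in interstitial cells, with 579 and 526 CPM against 694 and 708 CPM and a log2 fold change of 0.32 (standard error 0.37), nor in intercalated cells, where it had 0.20 (standard error 0.35) and 26.7% of genes did not overlap. *Fxyd4* did not overlap in endothelial cells, with 17.3 and 26.7 CPM against 29.2 and 44.1 CPM and 0.77 (standard error 0.38), where 31% of genes did not overlap, at a level above that of free RNA in 1 of the 4 mice. Its lowest value, -1.998 (standard error 1.03), was in interstitial cells. There control mouse 2 stood at 128 CPM and the other 3 mice between 11.8 and 20.4 CPM. The summed CD-PC markers in interstitial cells were 127 and 446 CPM in the control and 143 and 165 CPM in the knockout mice. Their part in this value was not tested. In PT, DCT and CNT, *Atp1b1* had 0.08, 0.11 and -0.02, *Fxyd2* 0.13, 0.20 and 0.08, and *Fxyd4* -0.01, -1.15 and -0.79. In thin limb, CD-IC and DMEP, *Fxyd2* had 0.32, 0.06 and -0.24 and *Fxyd4* 0.39, 0.12 and 0.33. In endothelial and interstitial cells *Fxyd2* had 0.23 and 0.22, and *Atp1b1* had 0.24 in the former. *Fxyd5* had 0.59 in PT and -0.0041 in TAL, at under 4 CPM in every mouse of both.

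Both members with an unadjusted p under 0.05 were of low abundance. *Fxyd3* was higher in both knockout mice in DMEP, with a log2 difference of 0.87 ± 0.34 (standard error) and an adjusted p of 1.00 in edgeR. The summed DMEP markers were 6464 and 5645 CPM in the control and 5764 and 8867 CPM in the knockout mice, and 1 of 10236 genes was called in this class (0.00977%). Called doublets made up 9.52% and 6.52% of DMEP nuclei in controls and 29.0% and 3.23% in knockouts. Their part was not tested beyond leaving them out, and over all alternatives the value for *Fxyd3* stayed between 0.66 and 1.23. *Fxyd5* was higher in both in interstitial cells, with 5 and 1 UMIs against 6 and 8 UMIs, a log2 difference of 2.21 ± 0.73 (standard error) and an adjusted p of 0.997 in edgeR, where 0 of 8934 genes were called (0%), 334 had an unadjusted p under 0.05 and 32.3% did not overlap. There the summed endothelial markers were 688 and 813 CPM in the control and 408 and 389 CPM in the knockout mice, and the immune markers 556 and 428 CPM against 612 and 401 CPM. Their part in this value was not tested. In endothelial cells, with 2 of 12966 genes called (0.0154%), *Fxyd5* had a log2 fold change of 0.0048 (standard error 0.28).

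Whether the genotype effect differed between classes was tested as an interaction with the mouse as a term. Between CD-PCs and TAL, the log2 fold change differed by -0.23 for *Atp1b1*, -0.44 for *Fxyd2* and 0.82 for *Fxyd4* (standard errors 0.35, 0.36 and 0.43), and with 1 mouse left out that of *Fxyd4* lay between 0.29 and 1.39. Between the Aqp3-high subcluster and IMCD the differences were 0.34, -0.12 and -0.69 (standard errors 0.29, 0.36 and 0.36), and that of *Fxyd4* lay between -1.16 and -0.23 with 1 mouse left out. All 6 had an adjusted p of 1.00 in edgeR, where 1 of 12741 genes (0.00785%) and 4 of 9832 genes (0.0407%) were called.

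Other genes of sodium transport were counted from lists. Of 15 sodium pump and FXYD genes, members included, 0 of 85 tests were called and 3 had an unadjusted p under 0.05, the third being *Atp1b3* in endothelial cells, with 141 and 170 CPM against 88.9 and 109 CPM. Of 7 related genes of hydrogen potassium pumps and pump-interacting NKAIN proteins, 0 of 29 tests were called and 4 had an unadjusted p under 0.05, for *Atp4a* in TAL and for *Atp4a*, *Nkain2* and *Nkain3* in CNT. These genes are named after their values were seen. Of 18 partner genes of sodium transport, such as sodium channel and cotransporter genes, 3 of 221 tests were called (1.36%) and 28 had an unadjusted p under 0.05 (12.7%). Over all genes these shares were 0.0104% and 2.91%. The lists were chosen with earlier results of these data known, and CD-PCs entered both as a whole and by their groups. The shares are thus a description and not a test of the list. In IMCD *Slc12a3*, the cotransporter of the DCT, rose from 11.1 and 9.20 CPM to 100.4 and 128 CPM. In DMEP *Slc12a3* fell from 185 and 106 CPM to 14.8 and 0 CPM. The 6 summed DCT markers, *Slc12a3* among them, were 135 and 139 CPM in IMCD of controls against 338 and 275 CPM in knockouts, and 378 and 277 CPM in DMEP against 222 and 80.5 CPM. In the Aqp3-high subcluster *Slc12a1*, the cotransporter of the TAL, fell from 1200 and 411 CPM to 66.8 and 39.0 CPM, where the 8 summed TAL markers, *Slc12a1* among them, were 3083 and 1143 CPM in the control and 471 and 226 CPM in the knockout mice. No gene was called in the Aqp3-high subcluster without control mouse 1 or with the pump and FXYD genes left out of clustering, and none in IMCD without called doublets or with free RNA subtracted. In DMEP no gene was called lower with DESeq2, with filterByExpr, without called doublets, under 1% mitochondrial UMIs, with free RNA subtracted, with the pump and FXYD genes left out of clustering or without integration.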

How the data were processed

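Nuclei of 4 mice were sequenced with 10x 3' chemistry, and the authors deposited raw UMI counts per gene and barcode for each library, made with Cell Ranger 3.0.2 on mm10 per the submitters' processing notes, which also name Seurat 3.2.1. The counter's use of strand is not given in the sources used here.

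Of the 10000 largest barcodes of each library, nuclei needed more than 500 genes, fewer than 4000, and a mitochondrial share below 5%. Libraries were integrated and clustered with Seurat 5.3.0 (2000 variable genes, 30 dimensions, resolution 0.5, and 0.2 within principal cells), and clusters were named from marker lists. Damaged clusters (1054 nuclei) and mixed clusters (483 nuclei) were set aside. Scrublet called 479, 236, 512 and 305 doublets, which were kept except in an alternative. Sums of each class in each mouse entered edgeR 4.0.16 (quasi-likelihood, TMM, R 4.3.3) where a gene reached 10 UMIs in all, with DESeq2 1.42.0 as an alternative. The fits were also tested on simulated data. Standard errors are the log2 fold change over the square root of F.

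The members, the lists and the tests were chosen with earlier results of these data known. All members were described by level in every class and by genotype in every class tested. Listed genes were named where called or at their highest level, with exceptions stated. For each member the 3 most alike genes with at least 100 CPM in 1 class of at least 50 nuclei were named. Each mouse is 1 library and 1 replicate. Shares and UMIs cover counting error only, and classes under 20 nuclei in a mouse (immune cells and podocytes) were not tested. Some listed genes are not reported here.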

Additional observations from a re-analysis of the deposited data

Results flagged for a closer look

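*Atp1b1* was higher in both knockout mice than in both control mice in the Aqp3-high subcluster and lower in both in IMCD. The difference of the log2 fold changes between these classes was 0.34 (standard error 0.29) and was not called by edgeR's interaction test. The summed CNT markers of the Aqp3-high subcluster were 1507 and 1391 CPM in the control and 3456 and 2746 CPM in the knockout mice. Its summed TAL markers went the other way, from 3083 and 1143 CPM to 471 and 226 CPM. The part of either was not tested.

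*Fxyd2* was counted in barcodes under 100 UMIs, which no comparison of genotypes uses, at 6608 CPM in control mouse 1, 6275 CPM in control mouse 2, 5848 CPM in knockout mouse 1 and 7114 CPM in knockout mouse 2, above its level in all 14 classes of nuclei in the same library.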

How the results depend on the processing

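No member was called under any of the alternatives run, with 673 values recomputed for the 44 member tests and 6 differences between classes, of which 605 kept their direction and 68 reversed, 46 of these with 1 mouse left out. The lowest adjusted p was for *Fxyd4* in interstitial cells without control mouse 1. That fit leaves control mouse 2, at 128 CPM there, as the only control. With all 4 mice the lowest adjusted p was 0.410, for *Fxyd3* in DMEP with the replicate number as a block.

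Leaving out 1 mouse gave log2 fold changes from -0.039 to 0.16 in CD-PC and from -0.10 to 0.24 in CCD for *Atp1b1*. For *Fxyd2* they ran from -0.86 to 0.27 in CD-PC, from -1.15 to 0.73 in the Aqp3-high subcluster, from -0.73 to 0.35 in IMCD, from -1.53 to 0.72 in CCD and from -0.27 to 0.62 in TAL. For *Fxyd4* they ran from -0.15 to 0.68 in CD-PC, from -0.25 to 1.07 in IMCD and from -0.27 to 0.82 in CCD, and for *Fxyd5* in endothelial cells from -0.21 to 0.28. The difference between CD-PC and TAL ran from -0.57 to 0.15 for *Atp1b1*, and that between Aqp3-high and IMCD from -0.65 to 0.42 for *Fxyd2*. The other differences kept their direction, with *Fxyd4* between 0.29 and 1.39 and *Fxyd2* between -0.86 and -0.036 for CD-PC and TAL, and *Fxyd4* between -1.16 and -0.23 for Aqp3-high and IMCD. In the other classes whose values reversed, *Atp1b1* ran from -0.19 to 0.29 in PT, -0.30 to 0.22 in CNT, -0.0092 to 0.41 in CD-IC and -0.094 to 0.50 in endothelial cells. *Fxyd2* ran from -0.64 to 0.88 in PT, -0.0041 to 0.80 in thin limb, -0.19 to 0.68 in DCT, -0.50 to 0.58 in CNT, -0.66 to 0.60 in CD-IC, -0.69 to 0.33 in DMEP, -0.27 to 0.79 in endothelial and -0.37 to 0.77 in interstitial cells. *Fxyd4* ran from -0.054 to 0.70 in thin limb, -1.53 to 0.64 in CNT, -0.026 to 0.34 in CD-IC and -0.15 to 0.71 in DMEP, and *Fxyd5* from -0.21 to 1.08 in PT and -0.64 to 0.39 in TAL. A lone mouse is there assumed to vary like the others.

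With all mice, the reversed values were 0.070 for *Atp1b1* and 0.15 for *Fxyd2* in IMCD under 1% mitochondrial UMIs, -0.046 for *Atp1b1* and 0.18 for *Fxyd2* in CCD without integration, -0.035 for *Atp1b1* in CCD at resolution 0.8, and 0.019 for the difference of *Fxyd2* between Aqp3-high and IMCD without doublets. *Fxyd5* in endothelial cells reversed to -0.020 without TMM, -0.0031 without a filter, -0.011 with filterByExpr and -0.0040 with the replicate block. *Fxyd4* in PT reversed to 0.0040 without TMM, 0.025 without doublets and 0.022 without integration, and in CNT to 0.059 without integration. *Fxyd5* in TAL reversed to 0.023 with DESeq2, 0.0055 without TMM and 0.070 with the replicate block. *Atp1b1* in CNT reversed to 0.018 without a filter, 0.022 without doublets, 0.0024 with free RNA subtracted and 0.067 under 1% mitochondrial UMIs, and *Fxyd2* in CD-IC to -0.00033 with the replicate block. The causes were not tested.

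The number of genes called over all classes, 16, became 37 with DESeq2, 278 without a filter, 454 with the replicate block, 8 without doublets, 6 with free RNA subtracted, 6 with pump and FXYD genes left out of clustering, and 114 to 282 with 1 mouse left out. In CD-PC the count of 0 became 2 with DESeq2, 33 without a filter, 116 with the block and 0 to 21 with 1 mouse left out. In Aqp3-high the count of 9 became 4, 35 and 57 under the same 3 settings, 4 without doublets, 5 with free RNA subtracted, 0 with pump genes left out, 3 without integration and 0 to 36 with 1 mouse left out. In IMCD the count of 1 became 9 without a filter, 35 with the block, 0 without doublets, 0 with free RNA subtracted and 6 to 31 with 1 mouse left out. In TAL the count of 2 became 4 with DESeq2, 72 without a filter, 1 with filterByExpr, 72 with the block, 0 with free RNA subtracted, 7 under 1% mitochondrial UMIs and 0 to 168 with 1 mouse left out.

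The labels do not say that equal replicate numbers mark a shared litter or day, and the 2 pairs deviated together with correlations from 0.05 to 0.52 over classes. With the replicate block 6 of 44 member tests had an unadjusted p under 0.05 and 0 were called.

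The control mean of *Fxyd2* in Aqp3-high fell to 16.6 CPM with free RNA subtracted, a mean that rests on control mouse 1. That of *Fxyd4* there was 3263 CPM with pump genes left out of clustering, 3493 CPM with free RNA subtracted, 3155 CPM without doublets and 2642 CPM under 1% mitochondrial UMIs. Thinned to 1000 UMIs, the share of nuclei with a UMI was 93.0% for *Atp1b1* in TAL, 81.8% and 48.0% for *Fxyd2* in IMCD and Aqp3-high, 90.9% for *Fxyd4* in Aqp3-high, 15.2% for *Fxyd3* in DMEP and 12.3% for *Fxyd5* in endothelial cells. Spearman's rho was 0.96 for *Atp1b1* and *Nme7*, 0.68 for *Fxyd2* and *Mgst3*, 0.28 for *Fxyd3* and *Krt15*, 0.73 for *Fxyd4* and *Nipal1* and 0.60 for *Fxyd5* and *Gm20663*. Under 1% mitochondrial UMIs, Aqp3-high, CCD, CD-IC, DCT, endothelial and interstitial cells held too few nuclei and were not run.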

Other observations

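Further FXYD and pump genes are given by the classes with their highest control means. *Fxyd6* had a control mean of 224 CPM in the endothelial cluster without arterial markers and 98.4 CPM in that with them, and 103 CPM in podocytes. *Fxyd1*, which encodes phospholemman, was highest in interstitial cells, at 32.5 CPM. *Atp1b3* was highest in the endothelial cluster with markers of arteries and descending vasa recta, at 216 CPM. Of the NKAIN genes, whose products bind the beta subunit of the pump, *Nkain3* was highest in type A intercalated cells, at 90.4 CPM, with 69.5 CPM in interstitial cells. The hydrogen potassium pump genes were low, with *Atp12a* highest in CNT at 12.9 CPM and *Atp4a* in type B intercalated cells at 13.2 CPM.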
